A study of Mus musculus with 18 samples.

Results

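Chemokines and their receptors were followed through the kidney cortex of lupus-prone mice given vehicle and of other mice of that strain under immunosuppressive treatment. The members were all genes whose symbol starts with Ccl, Cxcl, Ccr, Cxcr, Cx3cl, Cx3cr, Xcl, Xcr or Ackr followed by a digit, which gave 37 of the 15035 genes measured. By role they were 3 ligands of the receptor CXCR3, 3 neutrophil-attracting CXC ligands with the ELR motif, 10 inflammatory CC ligands, 10 ligands of lymphoid organs and resident cells, 9 signalling receptors and 2 atypical receptors.

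Each of 6 groups held 3 mice, and 1 library was made from each mouse. Mrl/lpr mice received Multi-target, Prednisone, FK506, MMF or Vehicle, and wild type Mrl/Mpj mice given Vehicle were the healthy controls. All 15 Mrl/lpr mice carry the lpr defect of Fas, the death receptor that removes lymphocytes, so disease and genotype cannot be told apart in the comparison with healthy mice. MMF (mycophenolate mofetil) blocks purine synthesis in lymphocytes, FK506 (tacrolimus) inhibits calcineurin, and prednisone acts through the glucocorticoid receptor. The labels give no ages, doses or treatment times, and do not say which drugs the multi-target treatment held. The series title names combination therapy for lupus nephritis as the subject.

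Chemokines are small secreted proteins that direct leukocytes along a gradient through G protein-coupled receptors. CC and CXC ligands are named for the spacing of their first cysteines. Atypical receptors bind chemokines without G protein signalling and clear them. In lupus nephritis, ligands made by tubular, mesangial and infiltrating cells draw T cells, monocytes and B cells into the kidney. In bulk cortex, a lower value may come from fewer cells of a type or from less RNA per cell, and these cannot be told apart here.

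Many of the ligand genes sit side by side in the genome. In the RefSeq annotation of GRCm38.p6, the assembly also called mm10, 10 members lie on chromosome 11, 7 on chromosome 5 and 7 on chromosome 9. Ccl2 (chr11:82035577-82037452), Ccl7, Ccl11, Ccl12 and Ccl8 form 1 run on chromosome 11, and Ccl5 (chr11:83525778-83530518), Ccl9, Ccl6 and Ccl4 form another. On chromosome 5, Cxcl5, Cxcl1 and Cxcl2 lie together, apart from Cxcl9, Cxcl10 and Cxcl11. Receptor genes Cxcr6, Xcr1, Ccr1 and Ccr2 lie close together on chromosome 9. Cxcl11 is annotated there as a transcribed pseudogene, and Ccl21b and Ccl21c are near-identical copies, so reads of those 2 genes are uncertain.

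Promoters of 2 neighbouring pairs are shown because each pair had its own pattern across mice. Cxcl9 and Cxcl10 were high in all 3 vehicle mice, whereas Cxcl1 and Cxcl2 stood far highest in vehicle mouse 36. The contrast does not extend to Cxcl11, the neighbour of Cxcl9 and Cxcl10. Cxcl11 also stood highest in vehicle mouse 36, by 2.40 on the log2 scale, against 2.72 for Cxcl2. Each line gives the 250 bases before the RefSeq start site of GRCm38.p6, 5′ to 3′ on the gene's own strand. Cxcl9 (chr5:92328080-92328329) and Cxcl10 (chr5:92348890-92349139) are on the minus strand, and Cxcl1 (chr5:90890995-90891244) and Cxcl2 (chr5:90903649-90903898) on the plus strand. Capitals mark matches to a core of the interferon-stimulated response element (TTTC and TTTC with any 2 bases between) or to a form of the NF-kappaB site (GGGA and TTTCC with any 1 base between).
Cxcl9: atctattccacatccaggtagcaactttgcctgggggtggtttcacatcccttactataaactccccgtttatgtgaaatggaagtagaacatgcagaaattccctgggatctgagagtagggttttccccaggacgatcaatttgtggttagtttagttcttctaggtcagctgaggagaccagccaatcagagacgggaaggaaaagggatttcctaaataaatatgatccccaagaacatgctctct
Cxcl10: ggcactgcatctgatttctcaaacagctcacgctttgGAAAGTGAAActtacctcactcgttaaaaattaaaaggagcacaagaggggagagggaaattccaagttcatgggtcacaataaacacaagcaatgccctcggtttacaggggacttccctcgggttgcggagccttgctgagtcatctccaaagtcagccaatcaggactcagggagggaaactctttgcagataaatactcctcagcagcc
Cxcl1: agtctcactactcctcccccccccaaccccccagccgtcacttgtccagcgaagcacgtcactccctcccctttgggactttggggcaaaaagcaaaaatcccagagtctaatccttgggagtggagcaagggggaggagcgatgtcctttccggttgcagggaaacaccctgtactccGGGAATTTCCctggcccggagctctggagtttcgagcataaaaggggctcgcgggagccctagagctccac
Cxcl2: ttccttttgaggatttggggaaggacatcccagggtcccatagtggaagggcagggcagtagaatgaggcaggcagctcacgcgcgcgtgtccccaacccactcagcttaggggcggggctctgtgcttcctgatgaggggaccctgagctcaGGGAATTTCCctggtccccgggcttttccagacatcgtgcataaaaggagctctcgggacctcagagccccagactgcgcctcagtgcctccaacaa
The Cxcl10 promoter held GAAAGTGAAA, the interferon element on the opposite strand, with its first base at -213 from the start. GGGAATTTCC lay at -71 in Cxcl1 and at -97 in Cxcl2. These letters are not in the Cxcl9 window. Both strands of 250 bases before and 50 after each start were searched, and promoters of 26 of the 37 members were at hand. The interferon element was in 3.44% of 32851 promoters and in those of 2 members, Cxcl10 and Cxcl14. The NF-kappaB form was in 0.411% of all promoters and in those of Cxcl1 and Cxcl2. A looser NF-kappaB consensus, which covers GGGAATTTCC, was in 8.46% of all promoters and in those of 7 of the 26 members. Cxcl10 had 3 matches to it, Cxcl1, Cxcl2 and Ackr2 had 2 each, and Ccl9, Ccl20 and Ccr1 had 1 each. The looser form therefore does not separate Cxcl10 from Cxcl1 and Cxcl2. The GAS element of interferon gamma targets (TTC and GAA with any 3 bases between) was in 8.3% of all promoters and in 1 member's, that of Cxcl14. A match is a stretch of letters and not a site shown to be bound.

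All values below are the authors' normalized log2 values, in which a difference of 1 is a 2-fold change. They are not per gene length, so levels are compared between mice and not between genes. Libraries held 28939845 to 41066953 reads, as recovered from the values. The median within-group SD was 0.72 for the members, against 0.22 for all genes. Fas stood at 7.73 to 8.28 in the 15 Mrl/lpr libraries, against 6.63 to 6.85 in the 3 healthy ones. A value per gene does not check the lpr allele, which interrupts the transcript without removing it. Vehicle mouse 17 carried adipocyte transcripts, with a mean over 6 adipocyte markers 7.13 above the healthy mean, and FK506 mouse 12 carried adrenal ones, with a mean over 6 adrenal markers 5.95 above it. Values of a group are listed in the order of the mouse numbers, which are 6, 18 and 39 for multi-target, 23, 29 and 35 for prednisone, 3, 12 and 24 for FK506, 1, 14 and 27 for MMF, 7, 17 and 36 for vehicle, and 1, 2 and 3 for healthy mice. The numbers pair no mice across groups.

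**Figure D1:**
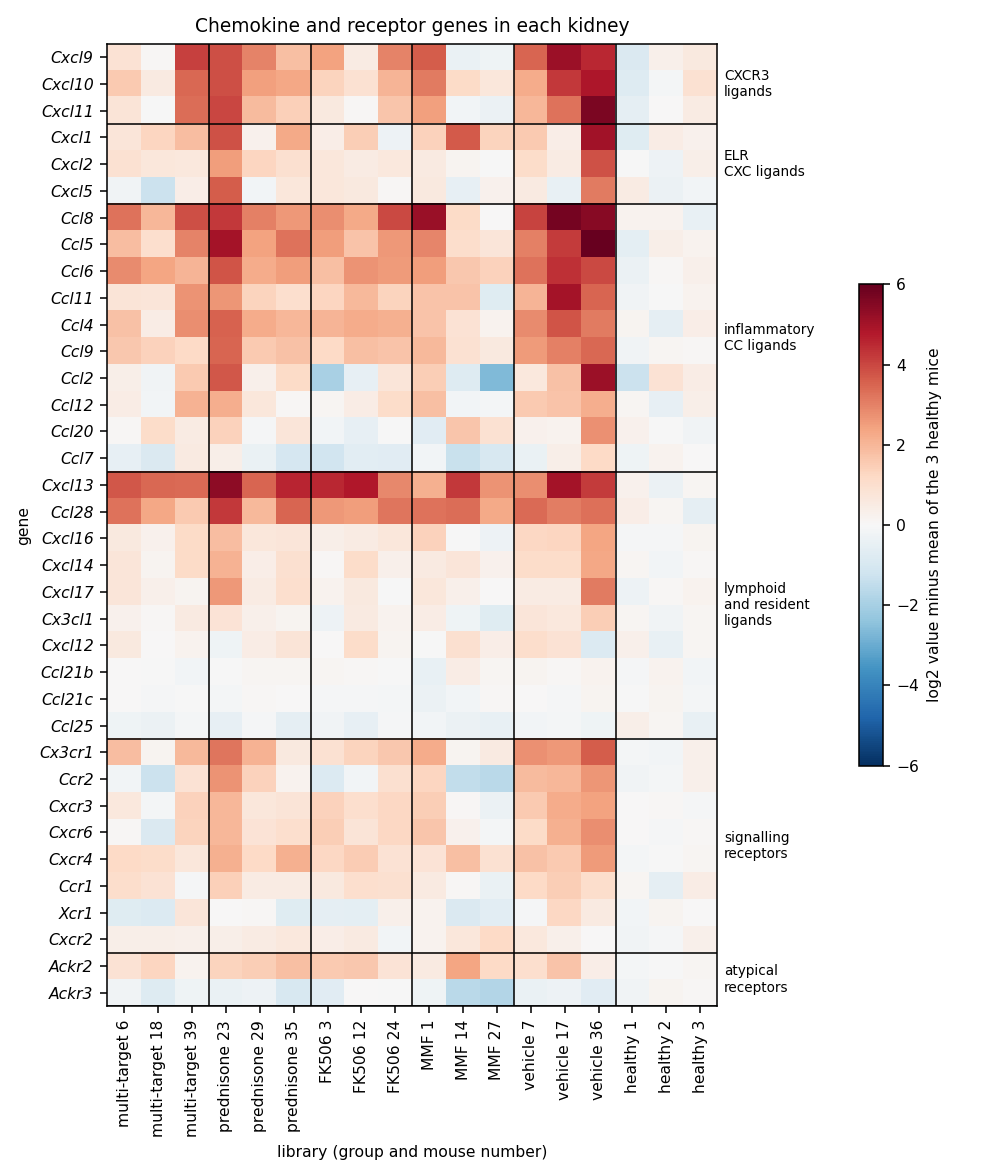
Heat map of 36 of the 37 members (rows, grouped by role) in the 18 libraries (columns, by group and mouse number), as the log2 value minus the mean of the 3 healthy mice, with colours saturating at 6 in either direction. Vehicle mice 7, 17 and 36 are red in most rows, and prednisone mouse 23, MMF mouse 1 and vehicle mouse 36 stand out from the other mice of their groups.

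In the diseased kidney, 21 of the 37 members were higher in vehicle Mrl/lpr than in healthy mice and 0 were lower, at an adjusted p under 0.05. Over all genes tested, 15.7% were higher and 6.76% lower by the same rule. The median log2 difference of the members was 1.96, against 0.094 for all genes, and 35 of the 37 differences were positive. In 25 members every vehicle mouse stood above every healthy mouse, against 32.6% of all genes. In 1 member, Ackr3, every vehicle mouse stood below, against 19.8% of all genes. A quantile normalization moved the median of all genes by -0.159, and 17 members were then higher and 0 lower.

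All 3 ligands of CXCR3, which attract activated T cells and are induced by interferon gamma, were higher in vehicle mice. Cxcl9 was at 9.53, 11.17 and 10.60 in vehicle mice, against 5.19, 6.34 and 6.63 in healthy mice. Its difference was 4.38 ± 1.12 on the log2 scale (SE; limma, adjusted p = 0.0132). Cxcl10 was at 9.36, 11.40 and 12.01 in vehicle mice, against 6.38, 7.03 and 8.05 in healthy mice. For neither gene did the groups overlap, and vehicle mouse 7 was the lowest diseased mouse for both. The difference of Cxcl10 was 3.77 ± 0.83 (adjusted p = 0.00553). Cxcl11, at 7.6, 8.84 and 11.24 in vehicle mice against 5.06, 5.61 and 6.10 in healthy mice, differed by 3.63 ± 1.04 (adjusted p = 0.0228). The call of Cxcl9 ended without healthy mouse 1 (3.95), and that of Cxcl11 without vehicle mouse 36 (2.63), healthy mouse 1 (3.37) or healthy mouse 2 (3.64). Their receptor gene Cxcr3, carried by effector T cells and NK cells, was at 6.89, 7.51 and 7.72 in vehicle mice, against 5.30, 5.36 and 5.23 in healthy mice. It was higher by 2.07 ± 0.46 (adjusted p = 0.00636), and all 3 vehicle values lay well above the healthy ones.

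Among the 10 inflammatory CC ligands, 6 were higher in vehicle mice, with a median difference of 3.12 over all 10. Ccl8 had the highest difference of all members, 5.07 ± 0.99 (adjusted p = 0.00256). It is a monocyte chemoattractant protein that in the mouse signals through CCR8. Vehicle mice had 9.52, 11.22 and 10.92, against 5.70, 5.70 and 5.04 in healthy mice. Ccl5, the T cell and monocyte attractant RANTES, was at 8.55, 9.75 and 13.13 in vehicle mice and at 4.96, 5.89 and 5.77 in healthy mice. It was higher by 4.94 ± 0.96 (adjusted p = 0.00252), with vehicle mouse 36 higher than the next mouse by 3.38. Ccl4, an attractant of T cells and monocytes, was at 6.66, 7.57 and 6.92 in vehicle mice and at 3.96, 3.27 and 4.18 in healthy mice, a difference of 3.24 ± 0.55 (adjusted p = 0.000914).

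Ccl6 and Ccl9, mouse CC chemokines of myeloid cells that act on CCR1, had small errors relative to their differences. Ccl6 was at 8.94, 10.07 and 9.64 in vehicle mice, against 5.30, 5.73 and 5.99 in healthy mice, and was higher by 3.87 ± 0.42 (adjusted p = 3.89e-05). Ccl9 was at 8.61, 9.08 and 9.52 in vehicle mice, against 5.86, 6.20 and 6.14 in healthy mice, and was higher by 3.00 ± 0.44 (adjusted p = 0.000327). The receptor gene Ccr1 was higher by 1.24 ± 0.34 (adjusted p = 0.0195). That call ended without vehicle mouse 17 (1.12) or healthy mouse 2 (0.97), and under quantile normalization (0.95). Ccl11, the eosinophil attractant eotaxin, was at 4.33, 7.29 and 5.78 in vehicle mice, against 2.06, 2.27 and 2.51 in healthy mice. It was higher by 3.52 ± 0.79 (adjusted p = 0.00656), but its call ended under quantile normalization (2.05, adjusted p = 0.0649). It had as few as 2 reads in MMF mouse 27.

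The pair of Ccl2 and Ccr2, which brings monocytes from the blood, was more variable. Ccl2 was at 7.16, 8.26 and 11.68 in vehicle mice, against 5.23, 7.38 and 6.98 in healthy mice, so the groups overlapped. Its difference of 2.50 ± 1.24 did not pass (adjusted p = 0.153). Ccr2 was at 9.71, 9.78 and 10.43 in vehicle mice, against 7.57, 7.70 and 8.11 in healthy mice. These groups did not overlap, and the difference of 2.18 ± 0.76 lay just outside the threshold (adjusted p = 0.0515). Ccl12, a mouse CCR2 ligand, differed by 1.82 (adjusted p = 0.053), again without overlap. In a fit of the 2 groups alone, Ccr2 and Ccl12 passed (adjusted p = 0.00314 and 0.0137), as they did with array weights (adjusted p = 0.00379 and 0.00841). Ccl7 differed by 0.39, and Ccl20, the ligand that draws CCR6-bearing T and B cells, by 1.06, and neither passed. Ccl20 was at 5.08, 5.04 and 7.56 in vehicle mice and at 5.08, 4.80 and 4.61 in healthy mice, so that vehicle mouse 36 alone stood apart.

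Neutrophil-attracting ligands followed that mouse as well. Cxcl1 was at 7.76, 6.56 and 11.23 in vehicle mice, against 5.45, 6.61 and 6.45 in healthy mice, and did not pass (2.34, adjusted p = 0.121). It passed without vehicle mouse 17 (3.32, adjusted p = 0.0412), and also without vehicle mouse 17 and FK506 mouse 12 (adjusted p = 0.0466). Cxcl2 was at 6.10, 5.47 and 8.82 in vehicle mice, against 4.96, 4.66 and 5.31 in healthy mice. It was higher by 1.82 ± 0.62 (adjusted p = 0.0465), but by 0.81 without vehicle mouse 36 (adjusted p = 0.203), and its call also ended without healthy mouse 1 (1.81), 2 (1.66) or 3 (1.99), in a fit of the 2 groups alone (adjusted p = 0.156) and under quantile normalization (0.94). Cxcl5 differed by 1.06 and did not pass. Their shared receptor gene Cxcr2, typical of neutrophils, was at 7.49, 7.18 and 6.89 in vehicle mice, against 6.63, 6.80 and 7.14 in healthy mice, and its difference of 0.33 did not pass.

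Vehicle mouse 36 was the highest of the 3 vehicle mice by more than 2 log2 units in 8 of the 37 members, against 0.738% of all genes. The 8 were Cxcl1 (by 3.47), Ccl2 (3.41), Ccl5 (3.38), Cxcl2 (2.72), Cxcl17 (2.63), Cxcl5 (2.58), Ccl20 (2.48) and Cxcl11 (2.40). This mouse also had the lowest mean over 10 kidney epithelial markers, at -0.92 from the healthy mean, against 0.05 and -0.13 in vehicle mice 17 and 7. Its mean over 7 neutrophil markers was 1.39 above healthy, the lowest of the 3 vehicle mice. The part of these differences in its chemokine values was not tested. Without this mouse, 15 members were higher than in healthy mice, against 9.91% of all genes called in either direction. The 15 without healthy mouse 2 compare with 12.1% of all genes.

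**Figure D2:**
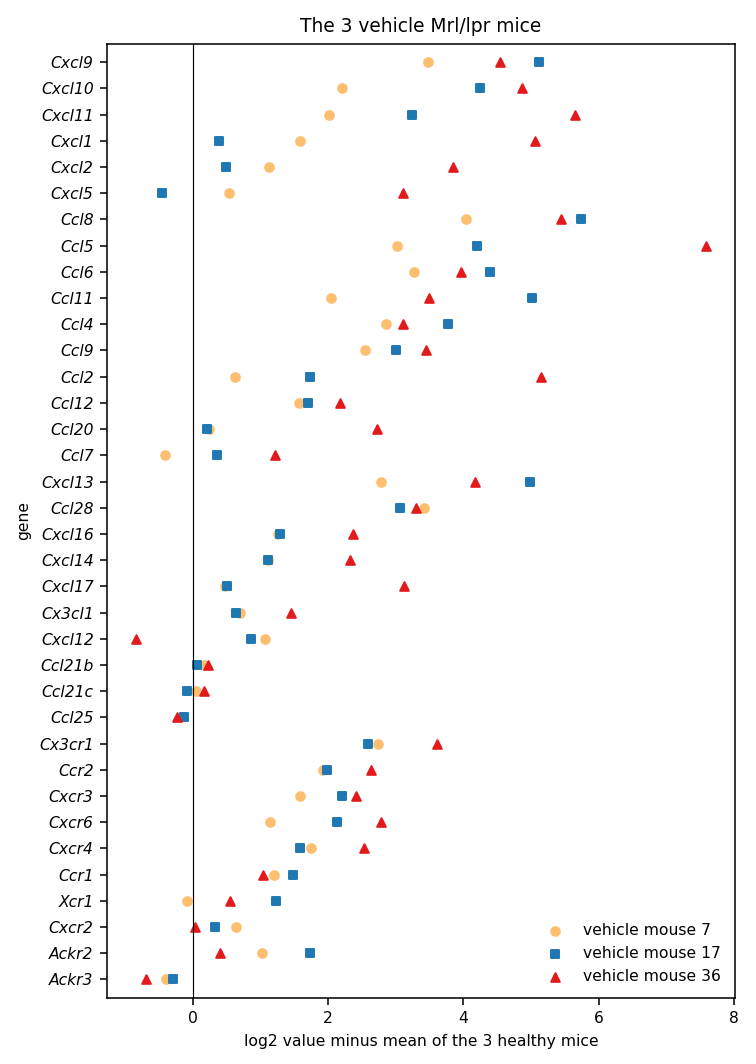
Log2 value of 36 members in vehicle mice 7 (circles), 17 (squares) and 36 (triangles), minus the mean of the 3 healthy mice, with members ordered by role. The 3 mice nearly coincide for Ccl28, whereas mouse 36 lies more than 2 units beyond the others for Cxcl1, Ccl2 and Ccl5.

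Of the 10 ligands of lymphoid organs and resident cells, 5 were higher in vehicle mice. Cxcl13, which attracts B cells into follicles through CXCR5, was at 7.24, 9.43 and 8.63 in vehicle mice, against 4.70, 4.08 and 4.58 in healthy mice. It was higher by 3.98 ± 0.64 (adjusted p = 0.000679). Ccl28, a chemokine of mucosal epithelia that acts on CCR10 of plasma cells and some T cells, was at 11.20, 10.85 and 11.09 in vehicle mice and at 8.20, 7.92 and 7.25 in healthy mice. It was higher by 3.26 ± 0.51 (adjusted p = 0.000506), and the vehicle mice varied little (11.05 ± 0.18, SD, n = 3).

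Both ligands that are made as membrane-anchored proteins were also higher, by smaller amounts. Cxcl16, the CXCR6 ligand, was at 12.39, 12.42 and 13.49 in vehicle mice, against 11.04, 11.05 and 11.29 in healthy mice (1.64 ± 0.42, adjusted p = 0.0132). Cxcr6 itself, found on memory T cells, was at 6.79, 7.77 and 8.43 in vehicle mice, against 5.67, 5.56 and 5.71 in healthy mice (2.02 ± 0.56, adjusted p = 0.0193). Cx3cl1, or fractalkine, was at 12.05, 11.99 and 12.81 in vehicle mice, against 11.45, 11.15 and 11.45 in healthy mice (0.93 ± 0.30, adjusted p = 0.0378). Its receptor gene Cx3cr1, typical of resident macrophages and patrolling monocytes, was at 10.01, 9.87 and 10.88 in vehicle mice, against 7.14, 7.09 and 7.58 in healthy mice. Cx3cr1 was higher by 2.98 ± 0.64 (adjusted p = 0.00487), and in each of these 4 genes every vehicle mouse stood above every healthy one. Cxcl14, an epithelial chemokine, was higher by 1.52 ± 0.41 (adjusted p = 0.0172). Without vehicle mouse 36 the calls of Cxcl16 (1.28), Cxcr6 (1.64), Cx3cl1 (0.67) and Cxcl14 (1.12) ended. Those of Cxcr6 and Cx3cl1 also ended without any 1 healthy mouse (1.98 to 2.05 and 0.83 to 0.98), and that of Cxcl14 without healthy mouse 2 (1.43). Under quantile normalization Cx3cl1 lay just outside the threshold (0.91, adjusted p = 0.0501), as did Cxcr6 without vehicle mouse 17 and FK506 mouse 12 (1.97, adjusted p = 0.0521).

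Ligands of T cell zones and of homing to gut and thymus showed no call. Ccl21b and Ccl21c, CCR7 ligands of lymph node stroma, differed by 0.15 and 0.04, and Ccl25, the CCR9 ligand, by -0.18. Cxcl17, a mucosal chemokine, differed by 1.37 (adjusted p = 0.112). Ccl19, Ccl21a, Ccr7, Cxcr5, Ccr6 and Xcl1, which pair with these ligands or receptors, were not among the 15035 genes measured.

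The CXCL12 axis, which retains leukocytes in tissue and guides progenitor cells, had a call for the receptor gene Cxcr4. Cxcl12 was at 11.07, 10.87 and 9.17 in vehicle mice, against 10.30, 9.57 and 10.14 in healthy mice, and its difference of 0.36 did not pass. Cxcr4 was at 9.02, 8.85 and 9.79 in vehicle mice and at 7.17, 7.23 and 7.39 in healthy mice, and was higher by 1.96 ± 0.32 (adjusted p = 0.000691). The scavenger receptor gene Ackr3 was at 11.31, 11.42 and 11.02 in vehicle mice, against 11.48, 11.86 and 11.79 in healthy mice. Its difference of -0.46 did not pass (adjusted p = 0.320). Ackr2, which removes inflammatory CC ligands, differed by 1.05 ± 0.43 (adjusted p = 0.0879), with all vehicle mice above all healthy mice. It passed with array weights (1.36, adjusted p = 0.003). Xcr1, a receptor of cross-presenting dendritic cells, was at 7.09, 8.41 and 7.72 in vehicle mice, against 7.01, 7.32 and 7.18 in healthy mice, and its difference of 0.57 did not pass. In all, 6 of 9 signalling receptors and 0 of 2 atypical receptors were higher.

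**Figure D3:**
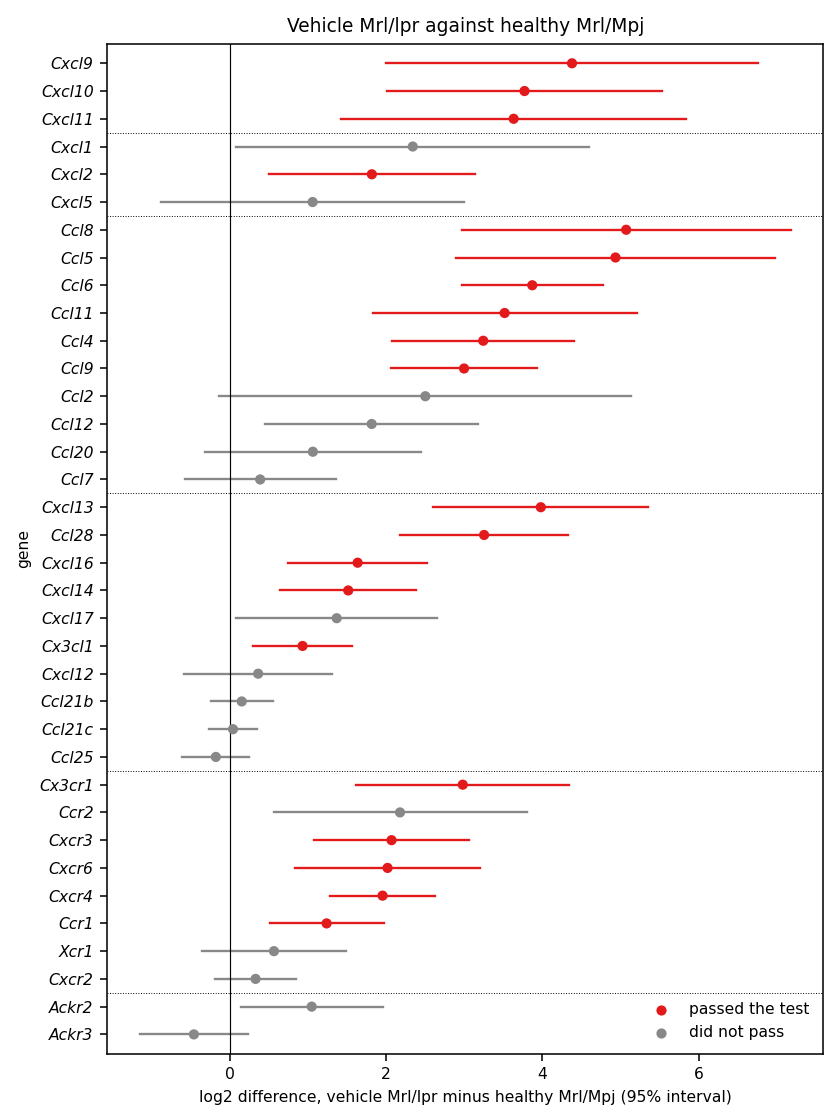
Log2 difference of vehicle Mrl/lpr minus healthy Mrl/Mpj mice for 36 of the 37 members, with 95% intervals from limma (3 mice per group, horizontal axis in log2 units). The 20 of them that passed are red and lie to the right of 0, led by Ccl8 at 5.07 and Ccl5 at 4.94.

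Genes that act upstream and downstream of chemokines moved in the same comparison, in which 15.7% of all genes were higher and 6.76% lower. Of 16 measured inducers and their receptors and transcription factors, 15 were higher in vehicle than in healthy mice, among them Irf1 (3.65), Il1b (3.61) and Tnf (3.51). Ifngr2 did not pass. Of 26 genes that signal below chemokine receptors, 19 were higher and 0 lower, with the regulator of G protein signalling Rgs1 at 4.09, the integrin chain Itgb2 at 3.42, the actin regulator Coro1a at 2.94 and the GTPase Rac2 at 2.87. Of 7 chemokine-like relatives, 4 were higher, namely Cmtm3 (1.88), the chemerin receptor Cmklr1 (1.31), chemerin itself (Rarres2, 1.27) and Cmtm7 (1.25). Leukocyte markers were higher as well, in 9 of 10 T cell, 8 of 9 macrophage, 5 of 6 B and plasma cell and 4 of 5 dendritic cell markers. Of 7 neutrophil markers, only 2 were higher. The macrophage markers averaged 2.87 to 3.72 above the healthy mean in vehicle mice, against -0.27 to 0.22 in healthy mice. The T cell markers averaged 1.26 to 2.33 above it in vehicle mice, against -0.01 to 0.01 in healthy mice. None of 4 NK cell markers was measured. The part of changed cell numbers in the chemokine differences was not tested.

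Each drug arm was then set against the vehicle Mrl/lpr mice. These 4 comparisons share the same 3 vehicle libraries. Most members were lower in each arm, but few or none passed the test. The counts of negative differences were 35 of 37 with multi-target, 33 with prednisone, 33 with FK506 and 34 with MMF. Median differences of the members were -1.03 with multi-target, -0.56 with prednisone, -1.12 with FK506 and -1.21 with MMF, against -0.02, 0.03, -0.01 and -0.05 for all genes. Without vehicle mouse 36 the member median was -0.71 with multi-target, -0.22 with prednisone, -0.63 with FK506 and -0.92 with MMF. The prednisone median was -0.93 without prednisone mouse 23 and -0.36 without prednisone mouse 29 or 35. In 0 members did every treated mouse stand above every vehicle mouse, against 7.55% of all genes with multi-target, 5.41% with prednisone, 9.84% with FK506 and 5.35% with MMF.

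With MMF, Ccl6, Ccl9 and Ccl4 were lower than in vehicle mice and no member was higher, against 1.45% and 0.133% of all genes, or 1.58% in either direction. At an unadjusted p under 0.05 there were 24 members, against 29.9% of all genes. Ccl6 was at 8.20, 7.29 and 7.07 in MMF mice, against 8.94, 10.07 and 9.64 in vehicle mice, a difference of -2.03 ± 0.42 (adjusted p = 0.0459). Ccl9 was at 8.02, 6.97 and 6.64 in MMF mice, against 8.61, 9.08 and 9.52 in vehicle mice (-1.86 ± 0.44, adjusted p = 0.0486). Ccl4 was at 5.52, 4.68 and 4.03 in MMF mice, against 6.66, 7.57 and 6.92 in vehicle mice (-2.31 ± 0.55, adjusted p = 0.0486). For all 3 genes every MMF mouse stood below every vehicle mouse, as it did in 12 of the 37 members and in 12.4% of all genes. The 3 calls lay just inside the threshold. The count was 0 under quantile normalization and in a fit of the 2 groups alone. It was also 0 without MMF mouse 14, MMF mouse 27, vehicle mouse 17 or vehicle mouse 36, 12 without vehicle mouse 7 and 22 without MMF mouse 1, when 12.9% and 36.8% of all genes were called.

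Just outside the threshold was Cx3cl1, at 11.82, 11.07 and 10.61 in MMF mice, against 12.05, 11.99 and 12.81 in vehicle mice (-1.11 ± 0.30, adjusted p = 0.0574). The CXCR3 ligands had larger differences and wider errors. Cxcl9 was at 9.68, 5.64 and 5.78 in MMF mice, against 9.53, 11.17 and 10.60 in vehicle mice, a difference of -3.40 ± 1.12 (adjusted p = 0.082). MMF mouse 1 stood in the vehicle range, and the other 2 MMF mice were in the healthy range. Cxcl10 was at 10.29, 8.29 and 7.81 and Cxcl11 at 8.07, 5.41 and 5.24 in the same mice. Ccl5 was at 8.46, 6.62 and 6.25 in MMF mice, against 8.55, 9.75 and 13.13 in vehicle mice (-3.37 ± 0.96, adjusted p = 0.063).

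MMF mouse 1 had the highest value of its group in 26 of 37 members, against 41.7% of all genes, and by more than 2 log2 units in Ccl8 (4.06), Cxcl9 (3.89), Ccr2 (2.75), Cxcl11 (2.66) and Ccl2 (2.26). Ccl8 was at 10.67, 6.62 and 5.48 and Ccr2 at 9.06, 6.31 and 6.16 in the 3 MMF mice. The neutrophil attractant Cxcl1 was highest in MMF mouse 14, with values of 7.56, 9.86 and 7.49. Macrophage markers averaged 2.41, 1.49 and 0.68 above the healthy mean in MMF mice 1, 14 and 27, and T cell markers 1.29, 0.40 and 0.36. Their part in the spread of the chemokines was not tested. Between MMF and vehicle mice, 1.45% of all genes were lower. So were 3 of 9 macrophage markers (Cd68, Emr1 and Mrc1), 1 of 10 T cell markers (Lck) and 7 of 26 genes that signal below chemokine receptors. Those 7 were Itgb2 (-2.04), Coro1a (-1.69), Dock2 (-1.43), Pik3r5 (-1.39), Itgal (-1.17), Vav1 (-1.08) and Pik3cd (-1.07), and 0 of the 16 inducers passed. These marker and signalling calls also ended in the fit of the 2 groups, under quantile normalization and without MMF mouse 14, MMF mouse 27, vehicle mouse 17 or vehicle mouse 36, when 0 of all genes were called.

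With FK506, 0 members and 0 of the 15035 genes passed. At an unadjusted p under 0.05 there were 15 members, against 19.9% of all genes. In 21 of 37 members every FK506 mouse was below every vehicle mouse, against 12.2% of all genes. The CXCR3 ligands were 3 of them, with Cxcl10 at 8.50, 8.05 and 9.18 in FK506 mice, against 9.36, 11.40 and 12.01 in vehicle mice (-2.35 ± 0.83, adjusted p = 0.175). Ccl5 was at 8.05, 7.25 and 8.14 in FK506 mice, against 8.55, 9.75 and 13.13 in vehicle mice (-2.66 ± 0.96, adjusted p = 0.179). The smallest p belonged to Ccl6, at 7.47, 8.37 and 8.25 in FK506 mice (-1.52 ± 0.42, adjusted p = 0.171), followed by Ccl9, at 7.26, 7.87 and 7.77 (-1.43 ± 0.44, adjusted p = 0.171). Ccr2 was at 6.97, 7.64 and 8.74 in FK506 mice, against 9.71, 9.78 and 10.43 in vehicle mice (-2.19 ± 0.76, adjusted p = 0.173). Macrophage markers averaged 1.70, 2.25 and 2.22 above the healthy mean in FK506 mice 3, 12 and 24, against 2.87 to 3.72 in vehicle mice. T cell markers averaged 1.2, 0.97 and 1.09 in the same FK506 mice, against 1.26 to 2.33 in vehicle mice. Neutrophil markers averaged 1.51, 4.06 and 1.33, so that FK506 mouse 12 stood above the vehicle mice (1.39 to 2.91). The part of these markers in the chemokine differences was not tested.

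With the multi-target treatment, 0 members and 0 genes passed, and 16 members had an unadjusted p under 0.05, against 15.6% of all genes. In 13 members every treated mouse was below every vehicle mouse, against 9.54% of all genes. Ccl9 was at 7.67, 7.47 and 7.29 in multi-target mice, against 8.61, 9.08 and 9.52 in vehicle mice (-1.59 ± 0.44, adjusted p = 0.169). Ccl6 was at 8.52, 8.04 and 7.70 (-1.46 ± 0.42, adjusted p = 0.176), and Ccl5 at 7.40, 6.56 and 8.50 in multi-target mice (-2.99 ± 0.96, adjusted p = 0.202). Among receptors, Cxcr6 was at 5.71, 4.77 and 6.96 in multi-target mice, against 6.79, 7.77 and 8.43 in vehicle mice (-1.85 ± 0.56, adjusted p = 0.181). Ccr2 was at 7.61, 6.53 and 8.65 in multi-target mice, against 9.71, 9.78 and 10.43 in vehicle mice (-2.38 ± 0.76, adjusted p = 0.20). Multi-target mouse 39 was the highest of its group in 22 members, against 41.4% of all genes. For Cxcl9 the 3 mice were at 6.90, 6.14 and 10.17, and for Cxcl11 at 6.36, 5.58 and 8.92. Macrophage markers averaged 2.11, 1.61 and 2.22 above the healthy mean in these mice, and T cell markers 0.82, 0.44 and 1.23, and their part was not tested.

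With prednisone, 0 members and 0 genes passed, 2 members had an unadjusted p under 0.05 (3.15% of all genes), and in 0 members did all treated mice lie below all vehicle mice (1.3% of all genes). Ccl6 was at 9.47, 7.90 and 8.18 in prednisone mice, against 8.94, 10.07 and 9.64 in vehicle mice (-1.03 ± 0.42, adjusted p = 0.943). Ccl11 was at 4.91, 3.63 and 3.31 in prednisone mice, against 4.33, 7.29 and 5.78 in vehicle mice (-1.85 ± 0.79, adjusted p = 0.943). The next smallest p-values were those of Cxcr3 (-0.91), Ccl8 (-1.79) and Xcr1 (-0.78). Prednisone mouse 23 was the highest of its group in 28 of 37 members, against 38% of all genes, and by more than 1 log2 unit in 20 members, against 3.29% of all genes. In this mouse Ccl5 was at 10.53, against 7.97 and 8.79 in prednisone mice 29 and 35, and Ccl2 at 10.28, against 6.85 and 7.68. Its macrophage markers averaged 3.63 above the healthy mean, against 2.03 and 2.31, and their part was not tested.

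**Figure D4:**
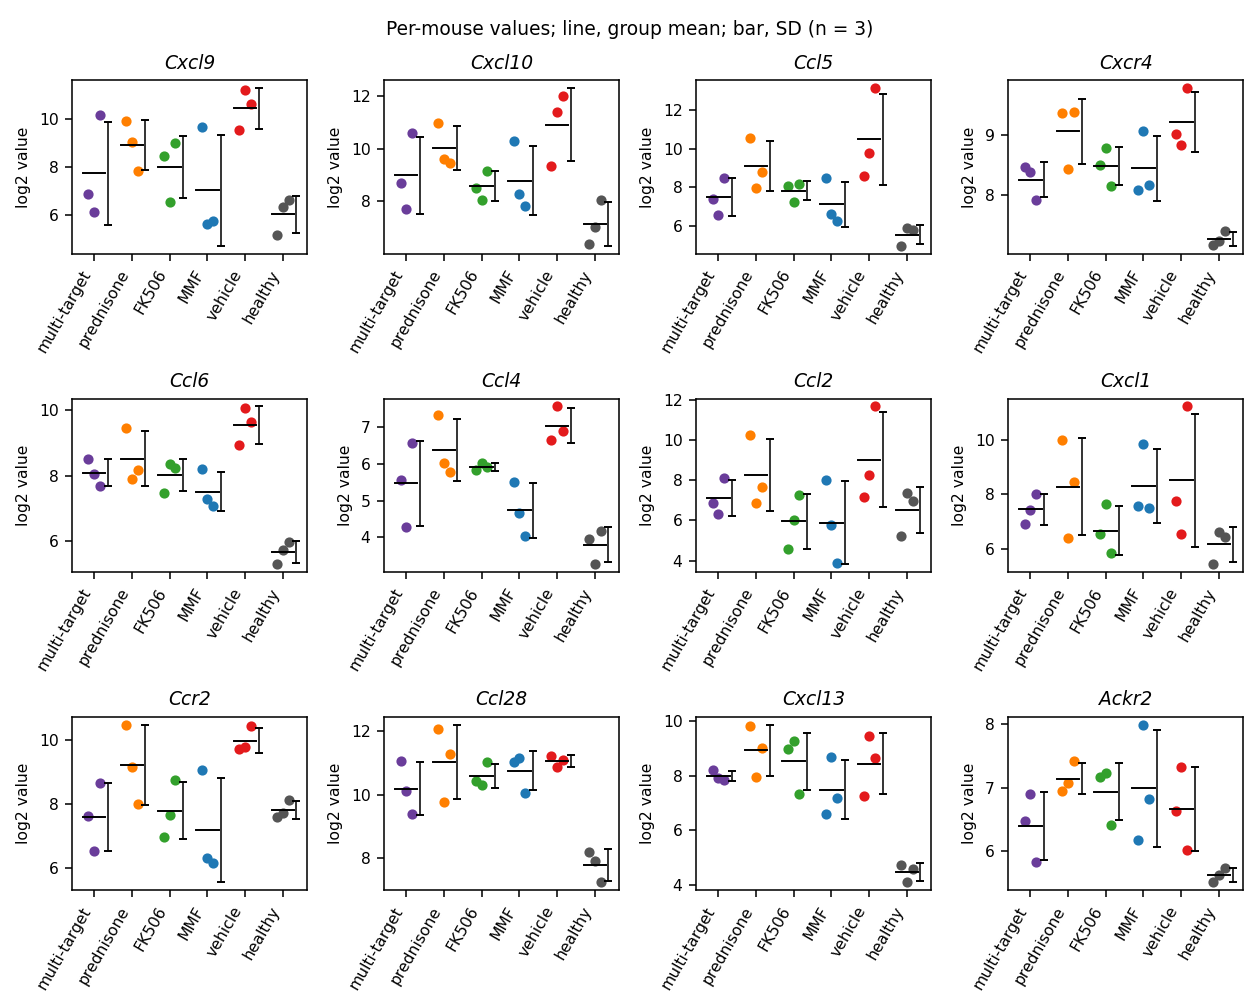
Log2 values of 12 members in every mouse, with 1 point per mouse, a line at the group mean and a bar for the SD (n = 3). For Cxcl13, Ccl28, Ccl5, Ccl6, Cxcr4 and Ackr2 all treated and vehicle mice lie above all healthy mice. For Cxcl9, prednisone mouse 23 (9.91), MMF mouse 1 (9.68) and multi-target mouse 39 (10.17) lie within the range of the vehicle mice.

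**Figure D5:**
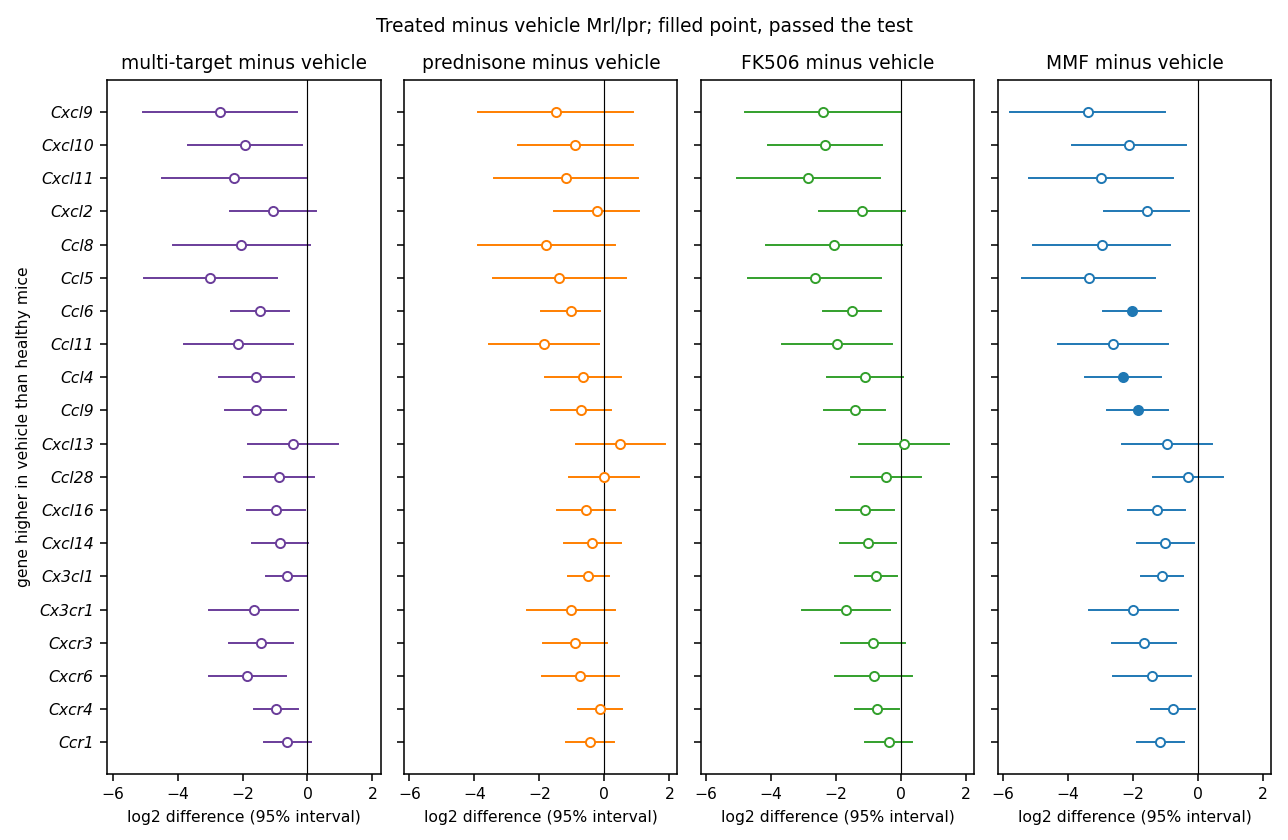
Log2 difference of each treated arm minus vehicle, with 95% intervals (3 mice per group), for 20 of the 21 members that were higher in vehicle than in healthy mice. Filled points passed the test, as Ccl6, Ccl4 and Ccl9 did with MMF. Most points lie left of 0, but these members were chosen for high values in the same vehicle mice, which favours that side.

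Between the multi-target arm and each single drug, 0 members and 0 of the 15035 genes passed. At an unadjusted p under 0.05 there was 1 member against MMF, 0 against FK506 and 1 against prednisone, with 7.49%, 0.406% and 3.35% of all genes. Every multi-target mouse stood above every MMF mouse in 1 member (4.97% of all genes) and below in 0 (1.53%), above every FK506 mouse in 2 (2.22%), and below every prednisone mouse in 2, Ackr2 and Cxcl2 (8.42%). The median member difference was 0.28 against MMF, 0.01 against FK506 and -0.63 against prednisone. Against MMF it was 0.77 without MMF mouse 1, 0.13 without MMF mouse 14, -0.01 without MMF mouse 27, 0.54 without multi-target mouse 18 and -0.02 without multi-target mouse 39. Against FK506 it ran from -0.13 to 0.15 with 1 mouse left out. Against prednisone it was -0.18 without prednisone mouse 23 and -0.38 without multi-target mouse 18. Against MMF, Ackr3 was at 11.52, 10.95 and 11.46 in multi-target mice and at 11.44, 10.07 and 9.97 in MMF mice (0.82 ± 0.32, adjusted p = 0.644). Against prednisone, Cxcr4 was at 8.47, 8.38 and 7.92 in multi-target mice and at 9.38, 8.44 and 9.39 in prednisone mice (-0.82 ± 0.32, adjusted p = 0.993). Against FK506, the smallest p was that of Cxcr6, at 5.71, 4.77 and 6.96 in multi-target mice and at 7.13, 6.44 and 6.87 in FK506 mice (-1.0 ± 0.56, adjusted p = 1). The intervals are wide. For Ccl5 the 95% interval ran from -1.66 to 2.42 against MMF, from -2.37 to 1.71 against FK506 and from -3.65 to 0.43 against prednisone. For Ccl6 it ran from -0.33 to 1.47 against MMF. These data therefore do not show that the arms act alike. Without MMF mouse 1, 3 members were higher with multi-target than with MMF and 0 were lower, when 16.8% of all genes were called in either direction.

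Setting the treated arms against healthy mice showed which members differed there. Higher than in healthy mice were 4 members with multi-target (5.33% of all genes), 12 with prednisone (13.4%), 7 with FK506 (5.73%) and 5 with MMF (9.56%), and 21 in vehicle mice. These comparisons share the healthy libraries. Ccl6, Ccl28 and Cxcl13 were higher in all 4 arms. Cxcl13 was at 8.19, 7.91 and 7.84 in multi-target mice, 9.83, 7.95 and 9.0 in prednisone mice, 8.99, 9.26 and 7.32 in FK506 mice and 6.58, 8.70 and 7.16 in MMF mice, against 4.70, 4.08 and 4.58 in healthy mice. Its differences from healthy were 3.53 with multi-target, 4.47 with prednisone, 4.07 with FK506 and 3.03 with MMF. Ccl28 was at 11.04, 10.10 and 9.38 in multi-target mice, 12.04, 9.76 and 11.28 in prednisone mice, 10.41, 10.31 and 11.01 in FK506 mice and 11.03, 11.16 and 10.04 in MMF mice, against 8.20, 7.92 and 7.25 in healthy mice. Every treated mouse exceeded every healthy mouse in both genes, and also in Ccl5, Ccl6, Ccl9, Cxcr4 and Ackr2. For each arm alone, this held for 30.1% of all genes with multi-target, 36.9% with prednisone, 30.1% with FK506 and 23.1% with MMF. The share of all genes for which it held in all 4 arms at once was not computed. These members, named for all 4 arms together, therefore have no like share beside them. For Ccl28 the differences from healthy were 2.38, 3.23, 2.78 and 2.95 in the same order of arms, and for Ccl6 2.41, 2.84, 2.35 and 1.84. Calls of these 3 genes ended without 1 library in some arms, namely Ccl28 with multi-target without multi-target mouse 6 (1.95) or healthy mouse 3 (2.11), Cxcl13 with MMF without MMF mouse 14 (2.42), and Ccl6 with MMF without healthy mouse 1 (1.66).

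Other members were above healthy in some arms. Cxcr4 was higher with prednisone (1.81), FK506 (1.22) and MMF (1.18). Ccl4 and Ccl9 were higher with prednisone (2.58 and 2.28) and with FK506 (2.13 and 1.57). With prednisone, Ccl5 (3.56), Ccl8 (3.29), Cxcl10 (2.88) and Cx3cr1 (1.95) passed as well. Ackr2 passed with prednisone (1.54) and MMF (1.38), though it had not passed between vehicle and healthy mice (1.05). It stood at 6.94, 7.07 and 7.42 in prednisone mice and at 6.16, 8.0 and 6.81 in MMF mice, against 5.50, 5.61 and 5.72 in healthy mice. Ackr3 was the single member that was lower than in healthy mice, with MMF, at 11.44, 10.07 and 9.97 in MMF mice, against 11.48, 11.86 and 11.79 in healthy mice (-1.21, adjusted p = 0.0257; 6.37% of all genes were lower). Passing in 1 arm and not in another does not show that the arms differ.

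Many of these calls against healthy mice ended when 1 library was left out. With prednisone, those of Ccl4, Ccl6, Ccl9, Ccl28, Cxcl13 and Cxcr4 held whichever prednisone or healthy mouse was left out. Without prednisone mouse 23, those of Ccl5 (2.84), Ccl8 (2.81), Cxcl10 (2.40), Cx3cr1 (1.32) and Ackr2 (1.64) ended. Each of these 5 also ended without healthy mouse 1 (3.27, 3.40, 2.50, 1.89 and 1.48) or healthy mouse 2 (3.73, 3.39, 2.82, 1.86 and 1.54), all but Cxcl10 without healthy mouse 3 (3.67, 3.07, 2.11 and 1.59), all but Cx3cr1 without prednisone mouse 35 (3.71, 3.63, 3.17 and 1.40), and Cx3cr1 without prednisone mouse 29 (1.89). With FK506, the calls of Ccl4 (1.86 to 2.31) and Ccl9 (1.45 to 1.75) ended whichever of the 6 libraries was left out, and that of Cxcr4 without FK506 mouse 12 or 3 or any healthy mouse (1.07 to 1.29). With MMF, those of Ackr2 (0.88 to 1.47) and Ackr3 (-1.33 to -0.95) ended without MMF mouse 14 or 27 or any healthy mouse, and that of Cxcr4 without MMF mouse 14 or any healthy mouse (0.87 to 1.25). Quantile normalization ended the calls of Ackr2 (1.07), Ccl8 (2.79) and Cx3cr1 (1.72) with prednisone, of Ccl4 (1.25), Ccl9 (1.31) and Cxcr4 (1.07) with FK506, and of Ackr2 (1.08) with MMF. The call of Cx3cr1 with prednisone also ended with a constant prior (adjusted p = 0.053) and without the lowest 25% of genes (adjusted p = 0.0534). The fit of 2 groups ended those of Cx3cr1 with prednisone (adjusted p = 0.0511) and of Ackr2 and Ackr3 with MMF (adjusted p = 0.0932 and 0.0928).

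Cx3cr1 and Cxcr3 stood between the vehicle and the healthy values in most treated mice. Cx3cr1 was at 9.13, 7.42 and 9.24 in multi-target mice, 10.48, 9.36 and 7.84 in prednisone mice, 8.19, 8.62 and 8.87 in FK506 mice and 9.51, 7.46 and 7.81 in MMF mice, against 9.87 to 10.88 in vehicle mice and 7.09 to 7.58 in healthy mice. Cxcr3 was at 5.95, 5.19 and 6.70 in multi-target mice, 7.29, 5.99 and 6.09 in prednisone mice, 6.67, 6.31 and 6.53 in FK506 mice and 6.77, 5.36 and 4.97 in MMF mice, against 6.89 to 7.72 in vehicle mice and 5.23 to 5.36 in healthy mice. For this receptor, multi-target mouse 18 and MMF mice 14 and 27 stood as low as the healthy mice.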

How the data were processed

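RNA-seq libraries of kidney cortex from 18 mice were analysed. The deposited values are log2 values per gene symbol that the authors had normalized between libraries, as the values show. Limma and mm10 are named, without roles, in the submitters' processing notes, and the aligner is not given in the sources used here. Per the labels' protocols, each library started from 1 ug of RNA. For 75% to 75.5% of genes, the deposited log2 value, raised back to a linear scale and divided by a single step for its library, was whole within 0.001 reads. The rest were not whole, so no count test was run.

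Without a filter, these values entered a limma model of the 6 group means (version 3.58.1, R 4.3.3), with 12 residual degrees of freedom and a trended prior. Benjamini-Hochberg adjustment ran over 15035 genes in each of 12 comparisons, with a threshold of 0.05. The fit was tested on simulated data. P-values rest on the spread between the 3 mice per group, pooled for each gene over all 6 groups. The SE of a gene is therefore the same in every comparison, and a gene that varies in any group has wide errors in all. The alternatives were a fit of the 2 groups alone, quantile normalization, dropping the lowest 25% of genes, array weights, a constant prior, leaving out vehicle mouse 17 with FK506 mouse 12, and leaving out each mouse.

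Values in every mouse are given for the 12 members with the largest called differences in disease, members called between treatments, and preset ligand and receptor pairs. Other members appear by counts and differences. All counts cover the 37 members, but 1 member is not reported by name. Where a drug comparison called no member, those with the smallest p were named. The members and lists were chosen with earlier results of these data known. Promoters and gene positions come from RefSeq (GRCm38.p6).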

Additional observations from a re-analysis of the deposited data

How the results depend on the processing

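Between vehicle and healthy mice the count of 21 was 9 without the lowest 25% of genes, when 12 members were left to test, and 15 to 21 when 1 mouse was left out. Between MMF and vehicle mice the count of 3 was 0 in the fit of the 2 groups, under quantile normalization, without the lowest 25% of genes and without vehicle mouse 17 and FK506 mouse 12. It was 1 with a constant prior, 22 with array weights (41% of all genes) and 0 to 22 when 1 mouse was left out. Array weights gave 7 members between multi-target and vehicle mice (3.51% of all genes) and 11 between multi-target and MMF mice (34.9%). The last of these counts was 0 to 3 when 1 mouse was left out. Against healthy mice, the counts without the lowest 25% of genes were 2 with multi-target, 5 with prednisone, 3 with FK506 and 3 with MMF. With array weights they were 19, 21, 19 and 13 in that order of arms, when 51.2%, 37.1%, 48% and 58.3% of all genes were called, and with 1 mouse left out 2 to 5, 7 to 12, 3 to 5 and 2 to 7. The lowest of these were reached, among others, without multi-target mouse 6, prednisone mouse 23, FK506 mouse 12 and MMF mouse 14. The fit of 2 groups gave 8 with multi-target and 16 with FK506, quantile normalization gave 4 with FK506, and FK506 without mouse 12 gave 3. The lower counts of the filtered fits follow from the fewer members tested, and for the others the cause was not tested. Quantile normalization moved the share of higher calls in disease to 43.7%, against 69.8% as reported, over all genes.

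In disease, 12 calls held under every alternative in which they were tested, among them Ccl4, Ccl5, Ccl6, Ccl8, Ccl9, Ccl28, Cx3cr1, Cxcl10, Cxcl13, Cxcr3 and Cxcr4. Only members that had not passed changed sign. Quantile normalization gave -0.11 for Ccl21b, -0.22 for Ccl21c and -0.18 for Cxcl5, and array weights gave -0.0096 for Ccl21c. Without vehicle mouse 36, Ccl21c was at -0.0186 and Ccl7 at -0.0224, and without healthy mouse 3, Ccl21c was at -0.0126. With 1 mouse left out, these 2 genes reached at most 0.121 and 0.787. No paired analysis was possible because the mouse numbers pair no mice across groups. The members with the fewest reads were Ccl11, with a median of 10.5 reads per library, Cxcl5 with 13.5 and Ccl20 with 28.5, so that counting error was relatively largest for these 3. It was not compared with the spread between mice.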
